A study of Homo sapiens with 6 samples.

Results

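The genes described here are the protein-coding genes of chromosome 7 that end before base 50000000 on GRCh38, a stretch that makes up most of the short arm. They were picked from the deposited table by biotype, chromosome and gene end, and 35 names were then set aside. Set aside were names starting with HOX, COL, MRP, PSM, EIF, NDUF or IGFBP, and single genes such as IL6 and RAC1. This left 233 of the 268 protein-coding genes of the stretch, out of 58735 genes in the table. The comparison set is the 642 protein-coding genes on the rest of chromosome 7. The stretch was chosen with the difference between the genotypes known, so every value of these genes in that comparison is a description. Calls from the fit over all genes are given as counts or marks of single genes, without p-values, and support nothing about the stretch.

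Cultured HT1080 cells, an established line from a human fibrosarcoma, were sampled as wild type (WT, 3 libraries) and as a CRISPR-Cas9 knockout of GPR56 (KO, 3 libraries). GPR56, symbol ADGRG1, is an adhesion G protein-coupled receptor encoded on chromosome 16. Both genotypes were kept in DMEM with fetal bovine serum, and the descriptions of all 6 samples carry the name of the solvent DMSO without a dose or a time. The labels do not give the number of knockout clones or state whether samples of 1 genotype grew as separate cultures, so the spread between libraries may be technical.

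The genes of a chromosome arm serve mostly unrelated processes, and most are read from their own promoters. What neighbours share is their place: the DNA copies of the stretch, its replication and its chromatin domains, while their base composition and their level of expression differ from gene to gene. The first 50 Mb of chromosome 7 hold, among others, the beta-actin gene ACTB, the cyclophilin A gene PPIA, the mitotic scaffold gene ANLN and the secretory kinase gene FAM20C.

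Promoters of 177 of the 233 members were found in RefSeq (GRCh38.p14), each from 250 bases before to 50 bases after RefSeq's start of the gene, which need not be the start in the deposited table. The 4 here are shown because they belong to the members with the largest increases and to a member that was lower in the knockout, so that the letters of both directions can be read side by side. Capitals mark the GC box GGGCGG on either strand, and each sequence runs 5′ to 3′ on the gene's own strand.
FAM20C, chr7:192321-192620, plus strand: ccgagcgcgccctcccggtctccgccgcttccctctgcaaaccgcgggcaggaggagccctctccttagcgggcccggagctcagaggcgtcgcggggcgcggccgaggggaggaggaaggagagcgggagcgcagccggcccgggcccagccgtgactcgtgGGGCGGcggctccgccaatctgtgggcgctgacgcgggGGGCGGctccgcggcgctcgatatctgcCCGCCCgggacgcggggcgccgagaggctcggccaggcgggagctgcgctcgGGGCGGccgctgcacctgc
AMPH, chr7:38631324-38631623, minus strand: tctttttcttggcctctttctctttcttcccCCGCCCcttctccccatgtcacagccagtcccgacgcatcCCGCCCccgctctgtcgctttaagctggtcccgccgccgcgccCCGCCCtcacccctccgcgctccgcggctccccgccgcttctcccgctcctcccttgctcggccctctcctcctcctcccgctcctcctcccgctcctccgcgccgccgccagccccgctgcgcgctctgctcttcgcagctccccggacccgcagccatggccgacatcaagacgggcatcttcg
SUGCT, chr7:40134755-40135054, plus strand: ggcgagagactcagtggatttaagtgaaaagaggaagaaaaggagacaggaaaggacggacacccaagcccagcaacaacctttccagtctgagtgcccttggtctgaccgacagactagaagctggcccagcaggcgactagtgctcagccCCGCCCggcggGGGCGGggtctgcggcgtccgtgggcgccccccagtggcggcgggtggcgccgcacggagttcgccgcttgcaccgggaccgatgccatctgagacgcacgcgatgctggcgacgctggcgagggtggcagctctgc
ANLN, chr7:36389612-36389911, plus strand: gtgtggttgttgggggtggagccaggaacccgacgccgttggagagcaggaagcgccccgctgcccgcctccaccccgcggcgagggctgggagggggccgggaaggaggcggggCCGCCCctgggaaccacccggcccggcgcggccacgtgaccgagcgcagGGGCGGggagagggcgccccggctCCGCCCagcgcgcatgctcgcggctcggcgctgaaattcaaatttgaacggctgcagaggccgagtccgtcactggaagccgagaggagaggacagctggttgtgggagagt
FAM20C holds 4 GC boxes in this window, AMPH 3, SUGCT 2 and ANLN 3, so the gene that was lower does not stand apart from the others in this count. The GC content of the windows is 78.7% for FAM20C, 71.0% for AMPH, 66.0% for SUGCT and 72.7% for ANLN.

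Over the 99 tested members with a promoter, 72.7% held the GC box, against 44.6% of all 27305 RefSeq promoters. The sets are unlike, since the 99 passed the filter on FPKM and the 27305 were not filtered by expression. Shares over the promoters of all tested genes were not computed for any motif, and the part of the filter was not tested. The share was 47 of 54 (87.0%) among members called higher in the knockout, 5 of 9 (55.6%) among those called lower and 20 of 36 (55.6%) among those not called. Median GC content of the windows in these groups was 71.2%, 64.0% and 64.8%, with 58.3% over all promoters. The groups are calls on the values as deposited, where the difference moved with transcript GC content (Spearman 0.523 across tested members). The GC box is itself made of G and C. Shares by calls corrected for GC content were not computed, and the part of GC content in these shares was not tested. The ETS motif CCGGAAG was present in 24.2% of the 99 promoters and 10.7% of all, and CCAAT in 28.3% and 35.7%. Motifs were searched on both strands, none of those named contains another, and a match of letters is not evidence of binding.

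Each library gave 16410352 to 17276269 reads, recovered from the deposited FPKM values (reads scaled by exon length and library size). ADGRG1 stood at 6.61, 6.07 and 6.87 FPKM in WT and 2.68, 2.54 and 2.58 FPKM in KO, a difference of -1.06 on the log2(FPKM + 1) scale (SE 0.07), so the libraries carry the labelled direction. Of 9 mesenchymal markers, 6 reached a mean of 1 FPKM (VIM, CD44, FN1, SPARC, TGFBI, PDGFRB) while COL1A1, COL1A2 and THY1 did not, and the summed level was 643 FPKM in WT and 772 FPKM in KO. None of 5 epithelial, 5 leukocyte, 4 endothelial and 4 hepatocyte markers reached a mean of 1 FPKM over the 6 libraries. Their summed levels were nevertheless higher in KO, at 0.343 and 0.913 FPKM (WT and KO) for the epithelial, 0.0470 and 0.307 FPKM for the leukocyte, 0.423 and 1.47 FPKM for the endothelial and 0.339 and 0.558 FPKM for the hepatocyte markers. The endothelial sum was mostly PECAM1, with means of 0.326 FPKM in WT and 1.23 FPKM in KO. The epithelial sum was mostly CLDN4 (0.331 and 0.906 FPKM) and the hepatocyte sum mostly SERPINA1 (0.199 and 0.501 FPKM). Not all markers rose: VIM had means of 311 FPKM in WT and 287 FPKM in KO. COL1A2, KDR, APOA1, KRT5 and EPCAM, all under 1 FPKM, were also lower in KO. Across genes, the deviation from a gene's mean over the 6 libraries had Spearman coefficients with transcript GC content of -0.40 in WT 1, -0.63 in WT 2 and 0.23 to 0.47 in the KO libraries, while WT 3 was near 0 at -0.02. The part of the marker levels in the members' values was not tested, and the members' values are given both with and without the GC trend.

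Most members with measurable expression stood higher in the knockout. Of the 233 members, 129 had a mean of at least 1 FPKM over the 6 libraries and were tested with all other such genes in limma, and 104 were below that level. At a Benjamini-Hochberg adjusted p under 0.05, 68 of the 129 were called higher, 12 lower (7 without the library WT 1) and 49 were not called. Among all 12000 tested genes 21.0% were called higher and 22.4% lower, 43.4% together, and since the choice of the stretch used this contrast nothing is read from the members' counts. The median difference of the members, KO minus WT of log2(FPKM + 1), was 0.30, with quartiles of 0.02 and 0.54 and a range from -1.35 (ELFN1) to 1.90 (FAM20C). The median over all tested genes was -0.01. As a ratio of mean FPKM the median member stood at 1.27 in KO against WT, and in 100 of 129 the difference was above 0.

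All 3 KO libraries were above all 3 WT libraries for 76 members (26.4% of all tested genes showed this), below them for 15 (28.3%), and overlapped for 38. The shift was broad and mostly small: 74 members were at least 1.2 times higher in KO, 35 at least 1.5 times and 8 at least 2 times. Those 8 were FAM20C, MICALL2, SLC29A4, CPVL, MTURN, AMPH, SUGCT and CCM2. Of these, SLC29A4, CPVL and MTURN had WT means under 1 FPKM (0.628, 0.346 and 0.979) and passed the filter only through their KO levels. The shares at 1.2, 1.5 and 2 times were 57.4%, 27.1% and 6.2% of the tested members. Over all tested genes they were 25.3%, 9.88% and 3.41%. In the other direction 13 members were at least 1.2 times higher in WT, 4 of them (ELFN1, ETV1, HDAC9 and ELMO1) at least 1.5 times. These are 10.1% and 3.1% of the tested members, where the shares of all tested genes were 27.3% and 11.5%. ELFN1 and ETV1 had KO means under 1 FPKM and passed the filter only through their WT levels.

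By library, the members' median deviation had the same sign within each genotype. Deviations were taken from each gene's mean over all 6 libraries, so the WT and KO values depend on each other. The median deviation of the 129 members from their own means over the 6 libraries was -0.14, -0.15 and -0.16 in WT 1 to 3, and 0.16, 0.15 and 0.17 in KO 1 to 3. The rest of chromosome 7 gave 0.03, 0.00 and 0.02 in WT and -0.02, -0.01 and -0.02 in KO. The members took 1.81%, 1.79% and 1.83% of all reads in WT and 2.19%, 2.19% and 2.23% in KO. ACTB alone supplied a large part of those reads, and without it the shares were 1.07%, 1.03% and 1.08% in WT and 1.41%, 1.39% and 1.36% in KO. The 2 genotypes did not overlap in any of these measures of the members. The stretch was chosen on this contrast, so this is a description. In bulk RNA, a change in the make-up of the cell population and a change in RNA per cell cannot be told apart.

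**Figure D1:**
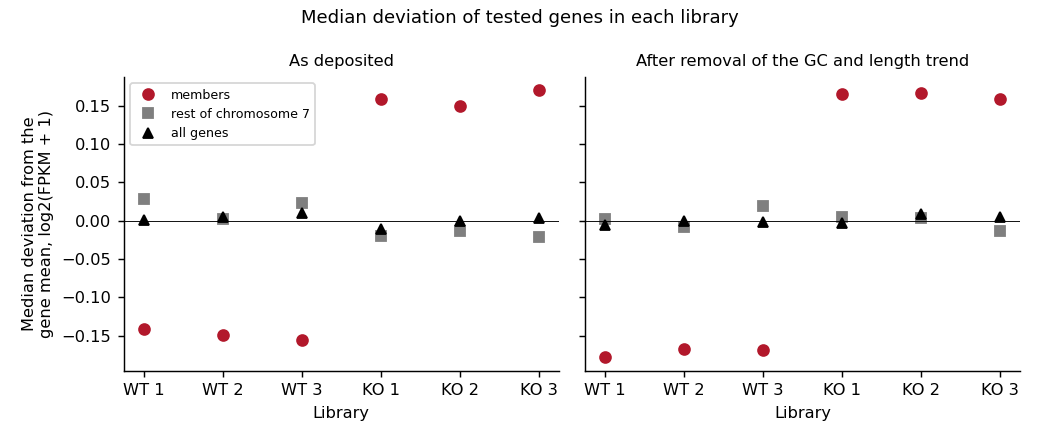
Median deviation (y axis, log2(FPKM + 1)) of the 129 tested members, the 317 tested genes on the rest of chromosome 7 and all 12000 tested genes from each gene's mean over 6 libraries, by library (x axis), as deposited (left) and after the trend with GC content and length was removed (right). The members sit at -0.14 to -0.16 in the 3 WT libraries and at 0.15 to 0.17 in the 3 KO libraries as deposited, while the other sets stay near 0.

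By position, both ends of the stretch had the highest medians in the values as deposited. Of all tested genes, 21.0% were called higher and 22.4% lower. In the first 10 Mb, 30 of 45 tested members were called higher and 1 lower, with a median difference of 0.40. Between 10 and 20 Mb only 10 members were tested, 2 were called higher and 4 lower, and the median was -0.10. The windows from 20 to 30 Mb and from 30 to 40 Mb had medians of 0.09 (9 higher and 3 lower of 25) and 0.19 (11 higher and 3 lower of 26). From 40 to 50 Mb, 16 of 23 were called higher and 1 lower, with a median of 0.53. The next window, 50 to 60 Mb, lay outside the members and had a median of -0.16, with 2 of 12 tested genes higher and 4 lower.

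GC content moved with these windows. The median transcript GC content was 58.8% in the first window, 40.02% in the second, 43.0% in the third, 44.1% in the fourth and 51.4% in the fifth. After the trend of each library with GC content and gene length was removed, the 5 medians were 0.32, 0.13, 0.35, 0.36 and 0.53, and that of 50 to 60 Mb was -0.13. All 5 windows of the stretch were then above 0, and the second window, negative as deposited, changed sign. The fifth window stayed highest, whereas the first window was then below the third and the fourth. On the rest of chromosome 7 the window medians ran from -0.21 to 0.12 as deposited and from -0.13 to 0.07 after the removal.

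**Figure D2:**
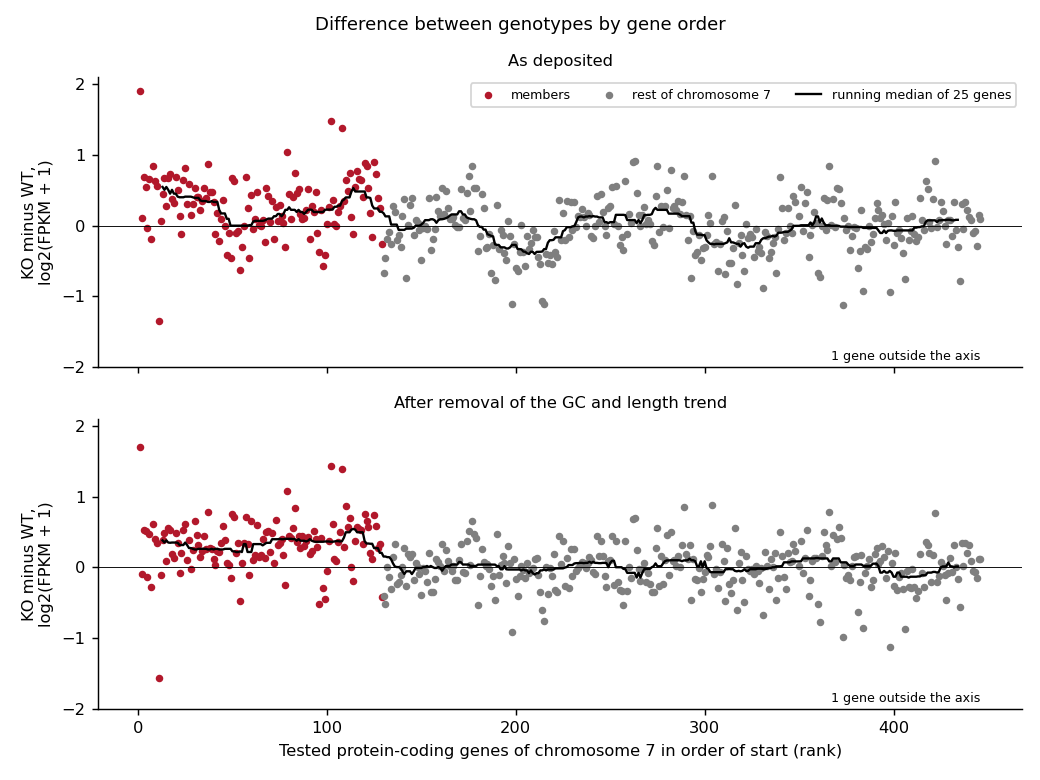
Difference between genotypes (y axis, KO minus WT of log2(FPKM + 1)) of tested protein-coding genes of chromosome 7 in order of their start (x axis, rank; names set aside are not shown), with a running median over 25 genes, as deposited (top) and after the GC and length trend was removed (bottom). The running median was taken over members and rest together, so it mixes both sets near the limit of the stretch. It is not drawn for the first genes. Below, it lies above 0 along the stretch and drops to near 0 around the limit. Above, it dips in the part of the stretch with low GC content.

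The rest of chromosome 7 did not share the shift. Of its 317 tested genes, 63 (19.9%) were called higher and 83 (26.2%) lower, with a median of -0.02, and 142 were above 0. Set against the first 50 Mb of the other chromosomes, chromosome 7 with all its names kept had the highest median of 23 (0.31 over 155 genes, the others from -0.16 to 0.25). After removal of the GC and length trend it came second, at 0.35, behind chromosome 13 at 0.45.

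With 100 of 129 differences above 0, neighbours on the same side of 0 are common. In the order of their starts, 17 consecutive tested members from WIPI2 to ZNF316 had a difference above 0, as did 14 from EPDR1 to URGCP, 12 from CPVL to FKBP9 and 11 from MAD1L1 to AP5Z1. The longest run of members at or below 0 held 5 genes, from AHR to SP4. After removal of the GC and length trend runs above 0 included 18 genes from KLHL7 to JAZF1 and 17 from CPVL to SEPT7. Strand made little difference to the description, with medians of 0.34 over 67 members on the plus strand and 0.28 over 62 on the minus strand.

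Secreted and extracellular proteins included the largest difference of the stretch. FAM20C, a Golgi kinase that phosphorylates secreted proteins and is needed for bone and tooth mineral, is also the first member of the stretch by position (chr7:192969-260745, plus strand). It measured 19.7, 17.3 and 21.3 FPKM in WT and 73.6, 76.2 and 75.2 FPKM in KO. The genotypes were far apart relative to their spread, with a ratio of 3.86 and a log2 difference of 1.90 (SE 0.08). CPVL, a carboxypeptidase-like protein, was near the lower limit of measurement at 0.354, 0.450 and 0.234 FPKM in WT against 1.36, 1.81 and 2.20 FPKM in KO, from 58 and 304 reads. Of 17 listed genes of this kind only 4 were tested, and the other tested ones were not called: GPNMB, a glycoprotein of endosomes and melanosomes, had means of 2.01 and 2.20 FPKM, and EPDR1, an ependymin-related protein, 28.0 and 28.4 FPKM.

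Of 14 tested genes of the cytoskeleton and of adhesion, 9 were called higher (64.3%, where 21.0% of all tested genes were higher). A further 2 were lower (14.3%, where 22.4% of all tested genes were lower) and 3 were not called, with a list median of 0.37. AMPH encodes amphiphysin, which bends membrane during endocytosis, and stood at 0.965, 1.14 and 1.25 FPKM in WT and 4.72, 5.07 and 4.91 FPKM in KO. CCM2, a scaffold that holds signalling proteins at endothelial junctions, was at 4.32, 3.49 and 4.15 FPKM in WT and 8.64, 8.29 and 7.80 FPKM in KO. For both genes every KO library exceeded every WT library, by ratios of the means of 4.38 and 2.07. MICALL2, an actin-associated protein of junction traffic, rose from a mean of 1.60 to 3.65 FPKM. ANLN, the anillin scaffold of the cytokinetic ring, was the most strongly expressed member called lower. It measured 43.1, 48.4 and 37.8 FPKM in WT and 28.3, 26.4 and 31.5 FPKM in KO, a difference of -0.56 (SE 0.10). ELMO1, which helps to activate Rac in migrating cells, fell from a mean of 1.88 to 1.15 FPKM.

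ACTB, beta-actin, was by far the most abundant member and was not called. It measured 2031, 2126 and 2109 FPKM in WT and 2165, 2292 and 2526 FPKM in KO. The KO libraries lay above the WT libraries, by 0.15 on the log2 scale (SE 0.09), and the difference was -0.03 after the GC and length trend was removed, so its direction depends on that step.

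Vesicle traffic, the endoplasmic reticulum and the Golgi formed the largest tested list, with a median of 0.28. In this list 13 of 25 were called higher and 2 lower (21.0% and 22.4% of all tested genes). YKT6, a SNARE of membrane fusion, was the most abundant of them that was called, at 77.2, 69.6 and 86.9 FPKM in WT and 123, 129 and 118 FPKM in KO. ZDHHC4, a palmitoyl transferase, had 6.46, 7.72 and 7.61 FPKM in WT and 12.7, 15.6 and 14.0 FPKM in KO, nearly a doubling (ratio 1.94). LFNG, a fringe glycosyltransferase that modifies Notch, had 3.99, 4.10 and 3.799 FPKM in WT and 7.37, 7.35 and 7.07 FPKM in KO. The KO libraries of all of these were above the WT libraries. CHST12, a chondroitin sulfotransferase, rose from a mean of 2.19 to 4.09 FPKM.

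Within the same list FAM126A, a part of the complex that makes phosphoinositide at the plasma membrane, fell from 6.26, 6.80 and 5.48 FPKM to 4.54, 3.86 and 4.29 FPKM. TMEM106B, a lysosomal membrane protein, fell from a mean of 3.73 to 2.55 FPKM. Neither was called after the GC and length trend was removed, when their differences were -0.10 and 0.06. C1GALT1, which extends O-glycans in the Golgi, was not called as deposited (5.45, 6.12 and 4.94 FPKM in WT, 4.73, 4.22 and 4.74 FPKM in KO), and its difference turned from -0.22 to 0.22 with that removal. RALA, a small GTPase of exocytosis, did not differ between genotypes beyond its spread, with 31.0, 32.4 and 30.6 FPKM in WT and 31.4, 31.3 and 31.5 FPKM in KO.

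Genes of metabolism and mitochondria were called higher in 7 of 13 and lower in 1 (21.0% and 22.4% of all tested genes), with a median of 0.29. OGDH, a subunit of the 2-oxoglutarate dehydrogenase of the citric acid cycle, measured 20.4, 18.5 and 22.1 FPKM in WT and 37.0, 38.5 and 39.5 FPKM in KO. SUGCT, a mitochondrial CoA transferase that acts on glutarate, measured 2.17, 1.75 and 2.55 FPKM in WT and 7.67, 7.79 and 6.07 FPKM in KO. BLVRA, which reduces biliverdin to bilirubin, measured 11.9, 11.9 and 12.6 FPKM in WT and 19.2, 21.6 and 22.2 FPKM in KO. These enzymes were higher in every KO library, with log2 differences of 0.88, 1.38 and 0.74. UPP1, a uridine phosphorylase and the last tested member toward the 50 Mb limit, fell from 14.1, 15.3 and 13.5 FPKM to 11.3, 11.8 and 12.1 FPKM. That call was lost without WT 1 (difference -0.27) and without KO 1 (-0.24). CYCS, cytochrome c, was not called, at 52.5, 55.1 and 55.0 FPKM in WT and 56.5, 53.5 and 59.4 FPKM in KO, and the libraries overlapped.

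**Figure D3:**
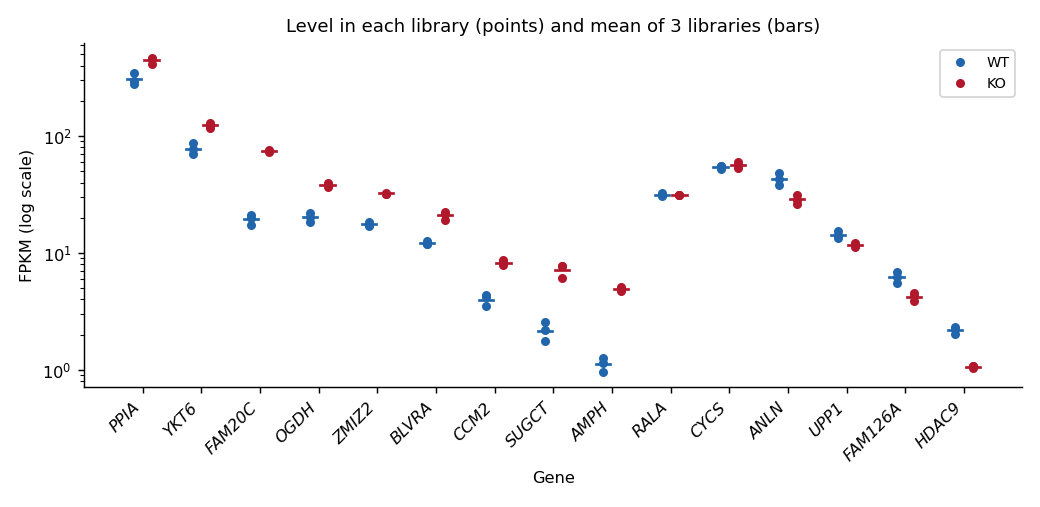
FPKM on a log scale (y axis) of 15 named members (x axis) in each of the 3 WT and 3 KO libraries (points), with the mean of each genotype (bars). FAM20C runs from 17.3 to 21.3 FPKM in WT and from 73.6 to 76.2 FPKM in KO, RALA and CYCS overlap, and ANLN, UPP1, FAM126A and HDAC9 are lower in KO.

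Genes of RNA processing and translation were called higher in 7 of 13, with none lower (21.0% and 22.4% of all tested genes). Their median was 0.28. TBRG4, a mitochondrial RNA-binding protein, measured 27.0, 27.2 and 29.4 FPKM in WT and 46.9, 47.1 and 46.7 FPKM in KO. BZW2, a regulator of translation initiation, measured 31.9, 33.7 and 29.7 FPKM in WT and 47.7, 48.2 and 53.5 FPKM in KO. The KO libraries of both were above the WT libraries. C7orf50, named here among genes of RNA processing, had 12.3, 9.87 and 16.6 FPKM in WT and 21.8, 21.8 and 18.4 FPKM in KO. Its call (difference 0.66, SE 0.17) was lost without WT 1 (0.64), without KO 1 (0.62) or without KO 2 (0.62). TRA2A, a splicing regulator, and IGF2BP3, an mRNA-binding protein, had differences of -0.00 and 0.01 and were not called.

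Among 9 genes of DNA repair, checkpoints and mitosis, 5 were called higher and ANLN lower (21.0% and 22.4% of all tested genes). Their median was 0.38. POLM, a DNA polymerase of end joining, measured 5.97, 5.44 and 6.62 FPKM in WT and 11.2, 11.2 and 10.4 FPKM in KO. NUDT1, which clears oxidised nucleotides, measured 11.2, 8.01 and 14.2 FPKM in WT and 21.6, 17.6 and 15.3 FPKM in KO. The KO libraries of both exceeded the WT libraries, but those of NUDT1 were widely spread. The call of NUDT1 (difference 0.68, SE 0.20) was lost without WT 1 (0.69), WT 2 (0.48), KO 1 (0.55) or KO 2 (0.69). MAD1L1, a spindle checkpoint protein, had a difference of 0.07 and was not called.

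Protein folding, ubiquitin and autophagy had 10 of 15 genes called higher and none lower (21.0% and 22.4% of all tested genes). Their median was 0.40. PPIA, cyclophilin A, a prolyl isomerase and the second most abundant member, measured 295, 280 and 349 FPKM in WT and 462, 454 and 416 FPKM in KO. WIPI2, which acts in the growth of autophagosomes, measured 10.9, 10.8 and 10.8 FPKM in WT and 17.1, 17.7 and 17.9 FPKM in KO. FBXL18, an F-box protein of ubiquitin ligases, measured 12.03, 13.1 and 12.7 FPKM in WT and 18.2, 19.6 and 20.2 FPKM in KO. The genotypes did not overlap for any of these genes, with differences of 0.53, 0.64 and 0.58.

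Receptors, channels and signalling proteins were mostly under the filter, with 6 of 28 tested. Of those tested, 5 were called higher and none lower (21.0% and 22.4% of all tested genes), with a median of 0.66. SLC29A4 and MTURN had WT means under 1 FPKM and were tested only through their KO levels. TTYH3, a membrane protein of the tweety family, measured 58.9, 49.8 and 66.4 FPKM in WT and 97.0, 94.1 and 89.8 FPKM in KO. SLC29A4, a monoamine transporter of the plasma membrane, rose from a mean of 0.628 to 1.85 FPKM, and MTURN, a regulator of neural progenitors, from 0.979 to 2.32 FPKM. For each of these the KO libraries were above the WT libraries. STK17A, a kinase of the death-associated family, rose from a mean of 20.5 to 32.5 FPKM.

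Chromatin and transcription had the lowest median of the lists, 0.11, as deposited and also after removal of the GC and length trend (0.21). Of 24 tested, 10 were called higher (41.7%, where 21.0% of all tested genes were higher). A further 4 were lower (16.7%, where 22.4% of all tested genes were lower) and 10 were not called. After the removal 1 was lower (21.3% of all tested genes). ZMIZ2, a coactivator of nuclear receptors, measured 17.5, 17.0 and 18.5 FPKM in WT and 32.0, 32.2 and 32.8 FPKM in KO. CDCA7L, a MYC-interacting nuclear protein, measured 17.3, 16.5 and 14.1 FPKM in WT and 25.3, 27.4 and 26.2 FPKM in KO. HDAC9, a class IIa histone deacetylase, went the other way, from 2.24, 2.30 and 2.04 FPKM in WT to 1.03, 1.08 and 1.08 FPKM in KO. All 3 of these genes had genotypes that did not overlap, with differences of 0.84, 0.69 and -0.63.

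The other members of that list called lower were ETV1, CREB5 and TWISTNB. ETV1, an ETS transcription factor, had means of 1.59 and 0.893 FPKM in WT and KO. CREB5, a relative of CREB, had 1.63 and 1.13 FPKM, and TWISTNB, a subunit of RNA polymerase I, 15.6 and 12.5 FPKM. None of these was called after removal of the GC and length trend, and TWISTNB then changed sign, to 0.06. The call of TWISTNB (-0.30) was also lost without WT 1 (-0.28), WT 2 (-0.23), KO 1 (-0.32), KO 2 (-0.26) or KO 3 (-0.31). PURB, a single-strand DNA-binding protein, was not called (18.3, 18.0 and 16.6 FPKM in WT, 14.5, 16.3 and 16.1 FPKM in KO), and its difference went from -0.17 to 0.11 with the same removal.

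**Figure D4:**
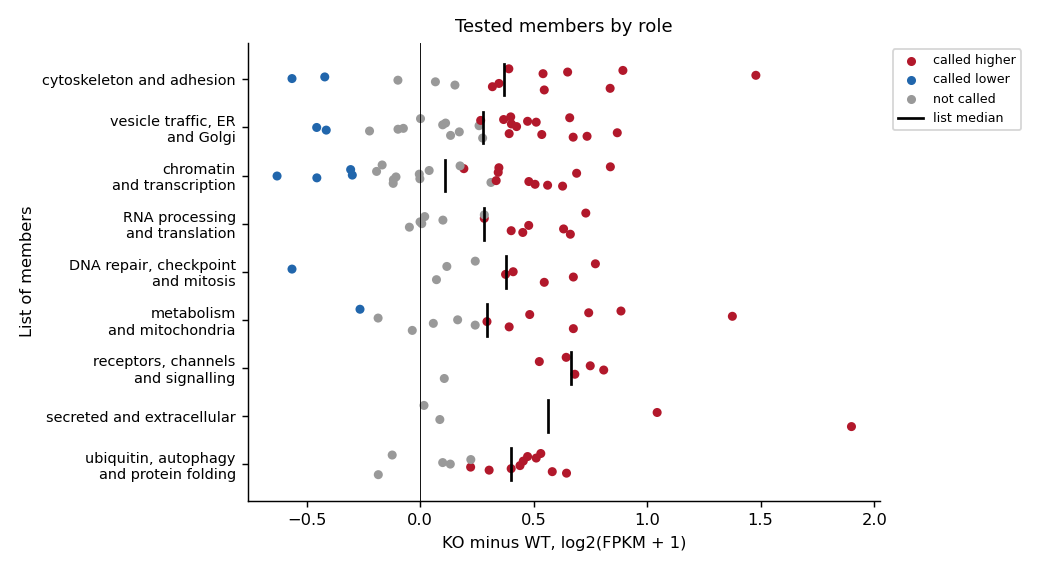
Difference between genotypes (x axis, KO minus WT of log2(FPKM + 1)) of each tested member in 9 lists by role (y axis), coloured by its call, with the median of each list as a bar; a gene can be in more than 1 list. All 9 medians are above 0, from 0.11 for chromatin and transcription to 0.66 for receptors, channels and signalling.

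The 9 lists were drawn up from the members' known roles and hold 176 members, 115 of them tested. Their medians of 0.11 to 0.66 all lay above the median of all tested genes, and after the GC and length trend was removed they ran from 0.21 to 0.63. The 14 tested members in no list had a median of 0.29, with 6 called higher and 3 lower (21.0% and 22.4% of all tested genes). One of those, SCRN1 (secernin 1), measured 57.2, 58.5 and 53.9 FPKM in WT and 70.3, 81.9 and 80.9 FPKM in KO. ELFN1, a synaptic adhesion protein named here after its values were seen, had the largest decrease of the stretch: 4.29, 3.64 and 4.08 FPKM in WT and 0.943, 0.876 and 1.08 FPKM in KO. It lies in the first window, and its nearest tested members were MAFK, with a difference of 0.56, and MAD1L1, with 0.07.

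Transcript GC content and the difference moved together within the stretch as they did elsewhere. Across the 129 members the Spearman coefficient was 0.523, against 0.572 across the 317 genes on the rest of chromosome 7 and 0.453 across all 12000; genes share their 6 libraries, so these are descriptions. The 43 members with the least GC (up to 44.1%) had a median of 0.04, the 43 in the middle 0.40 and the 43 with the most (above 52.6%) 0.54. Genes on the rest of the chromosome in the same 3 classes had medians of -0.29, -0.01 and 0.16. In each class the members' median was higher than that of the rest, by a similar amount. After the trend was removed, the members' medians were 0.30, 0.36 and 0.37 and those of the rest -0.02, 0.02 and 0.02.

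Removing that trend changed the calls of some members. The median became 0.35 (0.01 over all genes and 0.004 on the rest of the chromosome), 112 of 129 members were above 0, 84 were called higher (22.2% of all genes) and 6 lower (21.3%). Of the 68 members called higher as deposited 62 kept the call, and 22 others joined them. Of the 12 called lower, 6 kept the call: ELFN1, HDAC9, EEPD1, ANLN, ELMO1 and UPP1.

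**Figure D5:**
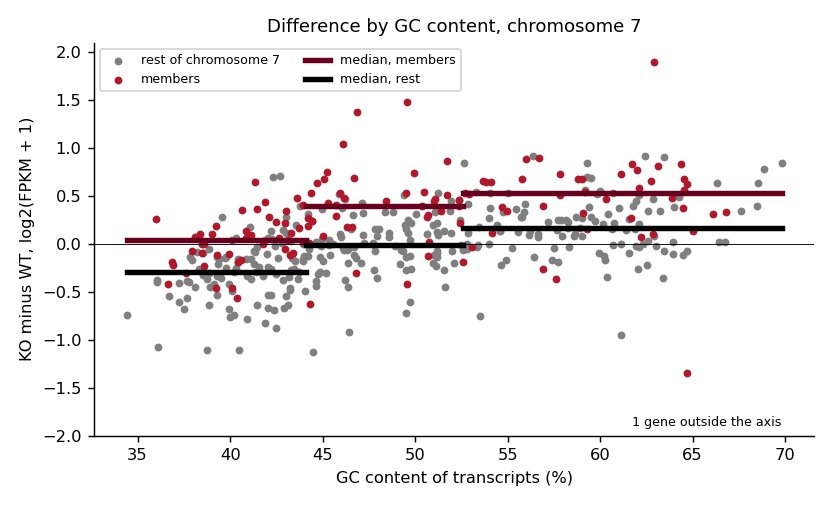
Difference between genotypes (y axis, KO minus WT of log2(FPKM + 1)) against transcript GC content (x axis, percent) of the tested genes of chromosome 7, with the median of the members and of the rest in 3 classes of GC content (bars). The members' bars lie at 0.04, 0.40 and 0.54 and those of the rest at -0.29, -0.01 and 0.16, so both sets rise to the right with the members above.

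At the 50 Mb limit the nearest genes were almost silent. The last members inside were CDC14C, with 26 reads in WT and 14 in KO, and VWC2, with 0 and 2 reads, and the first genes outside, ZPBP and SPATA48, had none. The nearest tested gene inside was UPP1 (chr7:48088628-48108733), given above, and the nearest outside was FIGNL1 (chr7:50444128-50542535), a gene of recombination repair. FIGNL1 had 7.10 ± 0.87 FPKM (SD, n = 3) in WT and 4.05 ± 0.35 FPKM (SD, n = 3) in KO. As deposited it was lower in KO by a larger difference (-0.68) than UPP1 (-0.26). After the GC and length trend was removed the differences were alike, -0.40 for FIGNL1 and -0.41 for UPP1.

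The 104 untested members had a mean under 1 FPKM over the 6 libraries. Not all were silent: BBS9 had 1.15, 1.40 and 1.41 FPKM in KO. No read was recovered in any library for 28 of them, 31 had 1 to 10 reads over the 6 libraries, 19 had more than 10 but fewer than 100, and 26 had at least 100. Together they gave 3738 reads in WT and 4859 in KO. A few differed widely at this low level. SCIN, an actin-severing protein of the gelsolin family, had 428 reads in WT and 8 in KO, or 0.753, 0.749 and 0.698 FPKM against 0.0301, 0.0050 and 0.0052 FPKM. AQP1, a water channel, went the other way, with 11 and 190 reads (0.0860, 0.0525 and 0.0525 FPKM against 1.34, 1.08 and 0.824 FPKM). ADCYAP1R1, a receptor for the peptide PACAP, had 29 and 133 reads, and ADCY1, an adenylyl cyclase, had 86 and 269. These 4 were the untested members with at least 100 reads in a genotype and a ratio of at least 3.

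The 35 names that were set aside showed the same direction. Of 26 tested, 15 were called higher and none lower (21.0% and 22.4% of all tested genes). Their median was 0.41, or 0.34 after removal of the GC and length trend. Their inclusion left the median of the stretch at 0.31.

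Some members share exons with a neighbour, and the strand setting of the counting is not given in the sources used here, so their reads could be divided either way. MALSU1 shares 39.5% of its exonic bases with IGF2BP3 on the other strand, AIMP2 28.9% with EIF2AK1 and CDCA7L 20.4% with the weakly expressed DNAH11. COX19 shares 21.4% with ADAP1 on the same strand. PMS2, CCZ1, CCZ1B, RNF216, RP9, ZNRF2, ACTB, PPIA, CYCS, CBX3, SEPT7 and FKBP9 have near-identical copies or pseudogenes, so their values are uncertain where reads could be divided among copies.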

How the data were processed

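The authors deposited 1 table of FPKM values for 58735 genes in 6 libraries, with positions, lengths and biotypes. The sources used here name no aligner or counting tool. Per the submitters' processing notes the builds are GRCm38 and mm10, which are mouse builds, yet identifiers, starts and ends of 58735 of 58735 genes equal human GENCODE 29 on GRCh38, the build used here. Multiplied by length, 100.0% of the values came within 0.02 of whole reads. The date-like symbol of SEPT7 was resolved by its identifier. No library was a copy of another (chi-square per degree of freedom 4.92 to 16.5 within genotypes, 40.78 to 60.41 between).

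Genes with a mean of at least 1 FPKM (12000) entered limma 3.58.1 (R 4.3.3; lmFit, then eBayes with a trend) on log2(FPKM + 1), which understates changes of low genes, with 6 libraries, genotype as the only term, two-sided tests and Benjamini-Hochberg adjustment at 0.05. Counting intervals are not used; precision rests on the spread of 3 libraries per genotype. GC content came from GENCODE 29 transcripts; its trend, with that of length, was removed per library by loess (span 0.5). On simulated data with 12000 genes and 200 changed, 41.8% of 1.5-fold, 98.5% of 2-fold and 100% of 4-fold changes were recovered, with 4.2% false calls. The simulation gave all genes the same dispersion and no GC trend, and changed only genes above a minimum of reads. These rates need not hold for the real libraries, which carry GC trends.

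Members and lists were chosen with earlier results of these data known. Named are: ADGRG1; up to 10 members with the largest increase and decrease among tested members that reach 5 FPKM in the higher genotype and whose genotypes do not overlap; the 2 most abundant in each 10 Mb window; the 3 largest differences in each list; genes at the limit; and untested members with at least 100 reads in 1 genotype and a ratio of at least 3. Other genes named were chosen after their values were seen. Other pseudocounts, filters, scalings, limits, left-out libraries, limma-voom on recovered reads, and a replicate block were tried.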

Additional observations from a re-analysis of the deposited data

How the results depend on the processing

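With alternatives in pseudocount, filter, scaling, model, limit of the stretch and libraries, the median difference of the members stayed above 0. It was 0.30 as reported, 0.35 with a pseudocount of 0.1, 0.12 with no filter (205 members, the added ones under 1 FPKM), 0.37 at a mean of at least 5 FPKM, 0.35 with the GC and length trend removed, 0.35 with limma-voom on recovered reads, 0.27 with a limit of 40 Mb and 0.28 with 60 Mb. Leaving out 1 library gave 0.30 to 0.32. The median of the rest of chromosome 7, -0.02, was -0.0042 with no filter, -0.0064 at 5 FPKM, -0.0053 with a limit of 40 Mb and, past 0, 0.0041 with the GC and length trend removed; leaving out 1 library gave -0.042 to -0.022. Members called higher numbered 59 to 68 and members called lower 7 to 14 when 1 library was left out, with 7 lower without WT 1 in place of 12. At 5 FPKM 4 members were lower, and 6 with the GC and length trend removed. Over all genes 5207 were called, 3203 at 5 FPKM (of 7053 tested) and 3789 to 5372 with 1 library left out.

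Libraries of the same number did not deviate together (correlations of -0.074, -0.184 and -0.348). Those of unlike number ran from -0.206 (WT 2 and KO 1) to 0.373 (WT 2 and KO 3). With 3 libraries per genotype these values cannot settle whether the numbers pair them. With the replicate number as a block, 61 members were higher and 7 lower; with the block and the GC and length trend removed, 77 were higher and 7 lower, with a median of 0.35 for the members and 0.0041 for the rest. NUDT1, TWISTNB and UPP1 lost their calls under the block alone.

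Of 546 alternative values of named members, 506 kept direction and call, 24 lost and 4 gained the call, and 12 changed sign. With the GC and length trend removed, alone or with the block, ACTB was at -0.028, C1GALT1 at 0.22, PURB at 0.11 and TWISTNB at 0.058. With quantile normalization CYCS was at -0.013 and RALA at -0.036. Leaving out 1 library put RALA between -0.015 (without WT 3) and 0.026 (without WT 2), with -0.0050 without WT 1. The cause was not tested. The 104 untested members were left out by the filter on FPKM, and 28 of them had no reads; 3 libraries per genotype limit the precision of the others.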

Other observations

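The noncoding and pseudogene rows of the same stretch were not part of the members. Of 571 such rows 35 had a mean of at least 1 FPKM, and 13 of these were called higher in the knockout and 1 lower, with a median difference of 0.24, or 0.23 after removal of the GC and length trend. On the rest of chromosome 7, 8 of 82 tested rows of this kind were called higher and 9 lower, and over all chromosomes 199 of 1743 were higher and 219 lower. Examples, chosen after their values were seen, are the long noncoding RNA HOTAIRM1 of the HOXA cluster, at 1.58, 1.89 and 2.69 FPKM in WT and 3.94, 4.16 and 2.496 FPKM in KO, which overlap, and the pseudogene PMS2CL, at 2.51, 2.45 and 2.45 FPKM in WT and 4.30, 4.66 and 3.99 FPKM in KO, which do not. SNHG15, a host transcript of small nucleolar RNAs, measured 9.80, 11.6 and 10.4 FPKM in WT and 11.99, 13.3 and 12.4 FPKM in KO, with every KO library above every WT library. PMS2CL, RNF216P1 and RP9P are copies of members and were called higher, with differences of 0.61, 0.21 and 0.40. Reads of a gene and its copy may be shared. After removal of the GC and length trend RNF216P1 (0.14) and SNHG15 (0.12) were not called, while PMS2CL, RP9P and HOTAIRM1 stayed called higher. EIF4HP1, a processed pseudogene, was the row called lower, with a difference of -0.27.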
